A study of Mus musculus with 4 samples.

Results

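Lipid-associated macrophages are tissue and tumor macrophages that take up and process lipid. The 9 genes Apoe, Trem2, Spp1, Gpnmb, Lpl, Fabp5, Cd36, Lgals3 and Ctsd, which are commonly used to describe this state, were followed in single-cell RNA sequencing (scRNA-seq) of mouse tumors. They were taken by gene symbol and make up 9 of the 32285 genes listed in the files. All 9 were found and counted in every library.

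The tumors were grown under the skin of C57BL/6 mice from MC38 cells, a mouse colon adenocarcinoma line. The cells carried wild-type (WT) RAC1, a small GTPase that organizes the actin cytoskeleton, or RAC1 with the A159V substitution, edited into the endogenous locus with CRISPR-Cas9. Animals were treated with isotype control IgG or with anti-PD1, which blocks a checkpoint receptor of T cells. Crossing genotype and treatment gave 4 groups, WT IgG, WT anti-PD1 and the same pair for A159V, each with 1 library, so that no test of a difference between groups was possible. All host cells were wild type for RAC1 in every group, since only the inoculated tumor cells were edited, and the study presents 1 edited clone unless it states otherwise. Beads were used to split CD45+ from CD45- cells, which were then mixed again for loading, and this sets the share of immune cells in a library. Intervals given below are 95% intervals that cover counting error only and leave out the spread between tumors.

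In macrophages, the receptor TREM2 binds lipids and lipoproteins, among them apolipoprotein E, and signals through the adaptor TYROBP. CD36 imports oxidized lipoproteins and long-chain fatty acids, lipoprotein lipase (encoded by Lpl) frees fatty acids from triglycerides, the carrier FABP5 moves them through the cytosol, and cathepsin D (Ctsd) degrades protein in the lysosome. Osteopontin (Spp1) and galectin-3 (Lgals3) are secreted and bind integrins or sugars, and GPNMB is a membrane glycoprotein of lysosome-rich cells. In tumors, macrophages rich in TREM2 or SPP1 are known for an ability to restrain T cells.

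The start regions of 3 members are shown here. Spp1 and Gpnmb were among the pairs of members most alike in level, and Ctsd was most like Ctsb and Ctsl, as given below. This choice did not follow a ranking, since Trem2 and Fabp5 were more alike (r = 0.93). Each sequence is a RefSeq promoter window on GRCm38.p6 from 250 bases before to 50 bases after an annotated start site, written 5′ to 3′ along the gene. Capitals mark motif letters found by a search of both strands, and none of the motifs shown overlapped another. In Spp1 (chr5:104434861-104435160, plus strand) they mark GAGGAAGT, a PU.1 motif, which began 113 bases before the start and is held by 3.20% of all 32817 promoter windows. In Gpnmb (chr6:49036268-49036567, plus strand) they mark TGACTCA, a match to TGANTCA, a loose AP-1 pattern that allows any base at N. It began 8 bases after the start, and 7.81% of windows hold the loose pattern. In Ctsd (chr7:142387778-142388077, minus strand) they mark CACGTG, the E-box bound by the lysosomal regulators of the TFEB family among other factors, at 245 and 98 bases before the start; 7.15% of windows hold it.
Spp1: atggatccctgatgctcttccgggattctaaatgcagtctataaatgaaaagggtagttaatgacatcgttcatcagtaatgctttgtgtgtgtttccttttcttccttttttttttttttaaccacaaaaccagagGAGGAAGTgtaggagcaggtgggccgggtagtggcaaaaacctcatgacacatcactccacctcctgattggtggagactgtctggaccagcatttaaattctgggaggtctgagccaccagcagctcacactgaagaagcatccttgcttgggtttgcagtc
Gpnmb: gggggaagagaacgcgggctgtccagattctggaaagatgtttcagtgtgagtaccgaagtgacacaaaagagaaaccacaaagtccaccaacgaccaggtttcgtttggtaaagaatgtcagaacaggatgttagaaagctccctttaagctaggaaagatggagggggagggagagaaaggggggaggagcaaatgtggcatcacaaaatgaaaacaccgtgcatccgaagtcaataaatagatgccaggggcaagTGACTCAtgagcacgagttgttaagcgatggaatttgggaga
Ctsd: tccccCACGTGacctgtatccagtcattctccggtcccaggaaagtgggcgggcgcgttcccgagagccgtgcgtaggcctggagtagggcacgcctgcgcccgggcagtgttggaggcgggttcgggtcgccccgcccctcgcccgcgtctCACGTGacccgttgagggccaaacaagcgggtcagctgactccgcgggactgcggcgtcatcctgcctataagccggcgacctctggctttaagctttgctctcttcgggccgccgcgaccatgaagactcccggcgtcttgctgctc
The Trem2 window (chr17:48346151-48346450, plus strand) also held a match to TGANTCA, with the letters TGAATCA, 9 bases before its start. The windows of Apoe, Cd36 and Lgals3 and the window of another Spp1 start site (chr5:104435942-104436241) held none of these 3 motifs. AGGTCA repeated after a gap of 1 base or of 4 bases, the paired half-sites of PPAR and LXR receptors, was in no member's window (0.0396% and 0.0152% of all windows). These matches describe letters in the window and not bound sites. Lpl and Fabp5 are not shown.

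The libraries held 7430 to 9311 barcodes and 54402632 to 125227747 unique molecular identifier (UMI) counts. After a minimum of 500 genes per cell and removal of predicted doublets, 6466 to 8248 cells were analyzed, and any pair of libraries shared 10 to 16 cell barcodes. The WT anti-PD1 library stood apart before any gene was compared. It held 40 tumor-like cells against 2002 to 2819 in the others, 1584 stromal-like cells against 145 to 185, and 181 endothelial-like cells against at most 2, so tumor-like cells of that library were not compared. Macrophage-like cells numbered 1248 (WT IgG), 1649 (WT anti-PD1), 1298 (IgG with A159V) and 1642 (anti-PD1 with A159V), with median depths of 3527, 3758, 2110.5 and 3018 UMIs. All 11 macrophage markers exceeded 20 CPM, the UMI count of a gene scaled to the summed UMIs of the class, in them in each library, and all 8 stromal markers did in stromal-like cells. In tumor-like cells 3 of the 8 tumor markers exceeded 20 CPM, so that name rested on few genes. Of the list, Prl2c2, Prl2c3 and Rhox5 were put in because an earlier look at these data named Prl2c2 and Rhox5. The rest are keratins and Epcam. Of the 10 leading genes, 2 were tumor markers in tumor-like cluster 1 and 0 in cluster 2. The same list sets the amounts of stray tumor RNA given below.

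The 9 genes were not all highest in the same cells. Among macrophage-like, monocyte-like, tumor-like and stromal-like cells, 7 members (Apoe, Trem2, Gpnmb, Fabp5, Cd36, Lgals3 and Ctsd) were highest in macrophage-like cells in each library in which the classes were compared, while Spp1 and Lpl were not. Macrophage-like cells exceeded monocyte-like cells by 3.68-fold to 6.63-fold for Apoe, by 6.09-fold to 8.27-fold for Trem2 and by 1.58-fold to 2.55-fold for Lgals3. In tumor-like cells Apoe stood at 5.63 to 6.49 CPM and Trem2 at 0.524 to 0.780 CPM, against 1974 to 3471 CPM and 165 to 210 CPM in macrophage-like cells of the same 3 libraries. Between 73.2% and 89.9% of all Apoe UMIs of a library came from its macrophage-like cells. Tumor-like cells had the deepest profiles, with median depths of 29730.5 to 42480 UMIs in the 3 libraries used, and they supplied 62.2% to 74.0% of Lgals3 UMIs and 70.1% to 81.5% of Gpnmb UMIs there although both genes were at a lower level in them than in macrophage-like cells. The same held for Lpl, with 62.7% to 90.1% of its UMIs from tumor-like cells, and for Ctsd, with 46.6% to 59.0%.

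**Figure D1:**
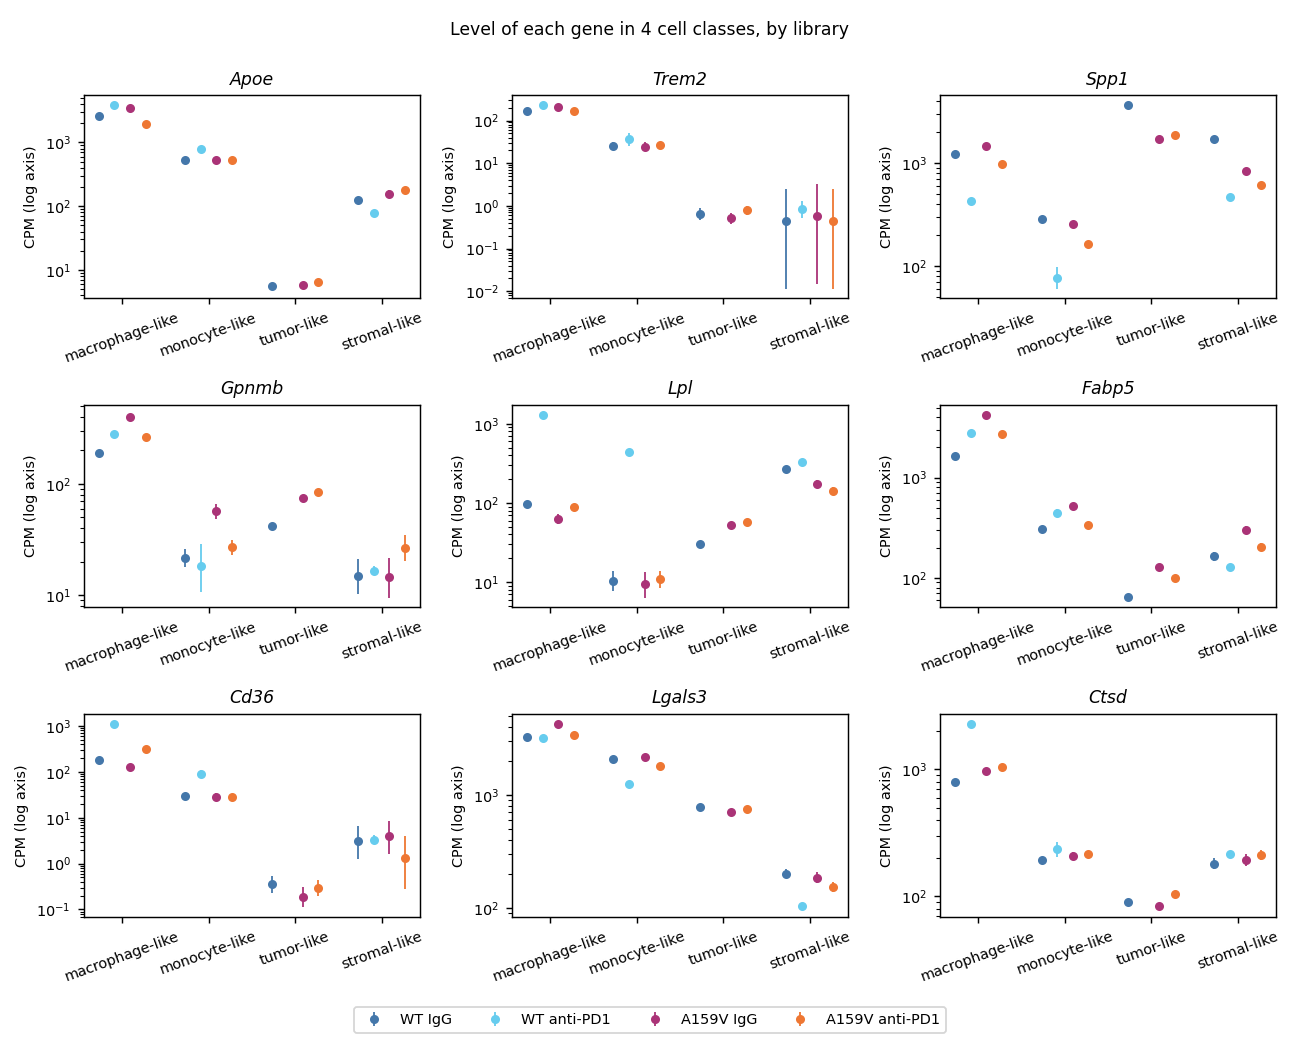
Level of each gene (CPM, log axis) in macrophage-like, monocyte-like, tumor-like and stromal-like cells, with a point per library, bars for the 95% counting interval and no WT anti-PD1 point for tumor-like cells. Apoe, Trem2, Gpnmb, Fabp5, Cd36, Lgals3 and Ctsd were highest in macrophage-like cells, whereas Spp1 was highest in tumor-like cells in the 3 libraries with that class.

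The macrophage class was made of 3 clusters that differed in size between libraries, and the member genes were left out of the clustering. Mac 1 was led by the complement genes C1qa, C1qb and C1qc, Mac 2 by Cxcl3, Mmp12, Mmp13 and Arg1, and Mac 3 by Mmp12, Mrc1, Ccl8, Arg1 and Retnla. Mmp12, Arg1 and Pf4 were leading genes of both Mac 2 and Mac 3. Members were among the leading genes too, with Apoe in Mac 1 and Mac 3, Fabp5 in Mac 2 and Cd36 in Mac 3. Mac 1 made up 68.4% and 50.5% of macrophage-like cells in WT IgG and A159V IgG, 40.4% in A159V anti-PD1 and 5.94% in WT anti-PD1. Mac 3 made up 88.5% in WT anti-PD1 and 4.08% to 10.6% in the other libraries, and 82.6% of all Mac 3 cells came from WT anti-PD1. With 1 library, a cluster held mostly by that library and a difference between libraries cannot be told apart. The ratios of the members in macrophage-like cells were therefore also computed with the first library set to the cluster shares of the second, called equal cluster shares below. For WT anti-PD1, Mac 1 and Mac 2 then carried 69.0% and 23.1% of the weight but held 98 and 92 cells. Mac 3, with 1459 cells, carried 7.93%. These ratios are given without an interval.

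Trem2 (chr17:48346401-48354147, plus strand), the lipid-sensing receptor, stood at 165 CPM in WT IgG, 227 CPM in WT anti-PD1, 210 CPM in A159V IgG and 171 CPM in A159V anti-PD1 macrophage-like cells. This was a narrow range, in which WT IgG and A159V anti-PD1 were low and WT anti-PD1 and A159V IgG were high. The log2 ratio was 0.35 (0.20 to 0.49) for A159V IgG over WT IgG, 0.45 (0.33 to 0.57) for WT anti-PD1 over WT IgG and -0.30 (-0.44 to -0.15) for A159V anti-PD1 over A159V IgG. At equal cluster shares these were 0.23, -0.12 and -0.36, so that the WT direction turned. No Trem2 ratio reached 2-fold, which with a level of at least 20 CPM in 1 of the 2 libraries is the size at which a difference was called. After each cell was thinned to 1500 UMIs, Trem2 was detected in 17.1%, 20.8%, 23.7% and 18% of macrophage-like cells in the same order of libraries (33.7%, 38.7%, 29.4% and 31.9% without thinning). In T-like cells, which should lack it, the thinned share was at most 0.25%. The T-like cells had median depths of 2764, 3071.5, 1642 and 2165 UMIs.

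Cd36 (chr5:17781690-17888801, minus strand), the scavenger receptor and fatty acid importer, differed more than Trem2. Its level in macrophage-like cells was 183 CPM in WT IgG, 1122 CPM in WT anti-PD1, 129 CPM in A159V IgG and 312 CPM in A159V anti-PD1. Both anti-PD1 libraries were above the IgG library of the same genotype, by 6.10-fold in WT (log2 ratio 2.61, 2.51 to 2.71) and by 2.40-fold in A159V (1.26, 1.11 to 1.42). Cd36 was higher with anti-PD1 in each of Mac 1, Mac 2 and Mac 3 in both genotypes, with log2 ratios of 2.03, 0.97 and 2.13 in WT and 1.39, 1.05 and 1.21 in A159V. At equal cluster shares the WT ratio fell to 1.43 and the A159V ratio to 1.12, both still past 2-fold. For A159V over WT under IgG the Cd36 ratio was -0.50 (-0.67 to -0.33) and became -1.01, past 2-fold lower, at equal cluster shares. Thinned shares of Cd36+ macrophage-like cells were 15%, 47.0%, 10.0% and 22.8%, against 21.3%, 53.2%, 12.9% and 30.4% without thinning. T-like cells reached 1.95% in WT anti-PD1 and at most 0.36% in the others. Endothelial-like cells, a Cd36-rich class, were abundant in WT anti-PD1, and the endothelial markers summed to 186 CPM in its macrophage-like cells against 144 to 161 CPM in the others. RNA from endothelial-like cells in the amount of those markers would carry 52.4 CPM of Cd36, or 4.67% of the level measured.

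Lpl (chr8:68880491-68907448, plus strand), the triglyceride lipase, showed the largest difference among the 9 genes. Its level in macrophage-like cells was 95.9 CPM in WT IgG, 1307 CPM in WT anti-PD1, 62.9 CPM in A159V IgG and 89.0 CPM in A159V anti-PD1. The WT anti-PD1 library alone was high, 13.5-fold above WT IgG (log2 ratio 3.76, 3.63 to 3.88), while the ratio for anti-PD1 in A159V was 0.49 (0.26 to 0.73). Within Mac 1, Mac 2 and Mac 3 the WT ratio was 3.10, 0.90 and 2.0, and at equal cluster shares it was 2.17. Lpl was detected in 6.35%, 28.5%, 4.33% and 6.04% of thinned macrophage-like cells and in 10.3%, 33.2%, 5.24% and 8.83% without thinning. T-like cells reached 1.53% in WT anti-PD1. Leaving out the 5 cells of each library with the most Lpl UMIs gave a ratio of 4.17. The stromal markers summed to 741 CPM in the macrophage-like cells of WT anti-PD1 against 45.6 to 81.1 CPM in the others, with all 8 of them detected there. Stromal RNA in that amount would carry 2.78 CPM of Lpl, or 0.212% of the level measured, and the adipocyte markers summed to at most 0.994 CPM, with Plin1 and Lep at 0 in all 4 libraries.

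Fabp5 (chr3:10012548-10016607, plus strand), the cytosolic fatty acid carrier, was the member that differed most between the genotypes under IgG in the macrophage class as a whole. Its level in macrophage-like cells was 1636 CPM in WT IgG, 2764 CPM in WT anti-PD1, 4249 CPM in A159V IgG and 2719 CPM in A159V anti-PD1. A159V IgG was highest and WT IgG lowest, a 2.60-fold difference (log2 ratio 1.38, 1.34 to 1.42). The ratio within Mac 1, Mac 2 and Mac 3 was 0.68, 1.21 and 0.17, and at equal cluster shares it was 0.88, under 2-fold. At equal cluster shares Cd36 (-1.01) differed more than Fabp5. The thinned share of Fabp5+ cells was 44.0% in WT IgG and 64.9% in A159V IgG (54.3% and 66.9% without thinning), against 7.66% and 9.55% in T-like cells.

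Apoe (chr7:19696109-19699188, minus strand), the lipoprotein ligand of TREM2, stood at 2624 CPM in WT IgG, 3893 CPM in WT anti-PD1, 3471 CPM in A159V IgG and 1974 CPM in A159V anti-PD1. The anti-PD1 library was above its IgG library in WT (log2 ratio 0.57, 0.54 to 0.60) and below it in A159V (-0.81, -0.85 to -0.78), and neither passed 2-fold. At equal cluster shares the WT ratio was -0.31 and the A159V ratio -0.94, so the class as a whole did not keep the opposite directions when Mac 3 was given its WT IgG share. Inside Mac 2, by its levels given below, Apoe was higher with anti-PD1 in WT and lower in A159V. Within clusters, the A159V ratio was -0.98 in Mac 1, -1.12 in Mac 2 and 0.02 in Mac 3.

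Ctsd (chr7:142375911-142388038, minus strand), the lysosomal aspartyl protease whose start region is printed above, stood at 803 CPM in WT IgG, 2275 CPM in WT anti-PD1, 973 CPM in A159V IgG and 1039 CPM in A159V anti-PD1 macrophage-like cells. WT anti-PD1 was 2.83-fold above WT IgG (log2 ratio 1.5, 1.45 to 1.55), and the others ranged from 803 to 1039 CPM. The ratio was 1.32 in Mac 1, 0.81 in Mac 2 and 0.01 in Mac 3, and 0.94 at equal cluster shares, just under 2-fold. For anti-PD1 in A159V it was 0.09 and turned to -0.03 at equal cluster shares. Mac 3 held 1587 to 2502 CPM of Ctsd in all 4 libraries, against 529 to 1324 CPM in Mac 1. T-like cells held 165 to 309 CPM.

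Gpnmb (chr6:49036546-49070929, plus strand), the glycoprotein of lysosome-rich cells, stood at 190 CPM in WT IgG, 284 CPM in WT anti-PD1, 403 CPM in A159V IgG and 262 CPM in A159V anti-PD1. A159V IgG was highest, 2.12-fold above WT IgG (log2 ratio 1.08, 0.96 to 1.21), and WT IgG was lowest. The ratio was 1.02 in Mac 1, 0.28 in Mac 2 and -0.54 in Mac 3, and 0.45 at equal cluster shares. The Mac 3 value rests on 81 cells in WT IgG and 53 in A159V IgG. Mac 2, the cluster with the most Gpnmb in each library (358 to 727 CPM), made up 25.1% of macrophage-like cells in WT IgG and 45.4% in A159V IgG. The thinned share of Gpnmb+ cells was 14.0%, 18%, 28.2% and 19.2%, the unthinned share 19.6%, 27.2%, 30.8% and 25.3%, and the T-like share at most 1.14%.

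Spp1 (chr5:104435118-104441050, plus strand), which encodes osteopontin, went the other way from Lpl, Cd36 and Ctsd in WT anti-PD1. Its level in macrophage-like cells was 1225 CPM in WT IgG, 429 CPM in WT anti-PD1, 1453 CPM in A159V IgG and 989 CPM in A159V anti-PD1. The WT anti-PD1 library was the lowest, 2.85-fold below WT IgG (log2 ratio -1.51, -1.57 to -1.45), with -0.55 (-0.61 to -0.50) for anti-PD1 in A159V. The WT ratio was -0.92 in Mac 1, -2.54 in Mac 2 and -0.55 in Mac 3, -1.80 at equal cluster shares and -1.31 without the 5 cells with the most Spp1. Those 5 cells held 26.5% of the Spp1 UMIs of macrophage-like cells in WT IgG. For A159V over WT under IgG the ratio was 0.25, and it turned to -0.27 at equal cluster shares. The tumor markers summed to 3.11 CPM in macrophage-like cells of WT anti-PD1 and to 39.9 to 89.6 CPM in the others. Tumor RNA in that amount would carry 123 CPM of Spp1 in WT IgG, 83.8 CPM in A159V IgG and 48.6 CPM in A159V anti-PD1, or 10.1%, 5.77% and 4.92% of the measured level. T-like cells also held less Spp1 in WT anti-PD1, at 31.2 CPM against 121 to 152 CPM in the other libraries. The part of stray tumor RNA in the lower Spp1 of WT anti-PD1 was not tested beyond these values.

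Lgals3 (chr14:47367751-47386160, plus strand), the galactoside-binding lectin, had the smallest range over the libraries. Its level was 3271 CPM in WT IgG, 3203 CPM in WT anti-PD1, 4230 CPM in A159V IgG and 3409 CPM in A159V anti-PD1. The 3 ratios were 0.37, -0.03 and -0.31 for genotype under IgG, anti-PD1 in WT and anti-PD1 in A159V, and 0.02, -0.25 and -0.31 at equal cluster shares. The shares of Lgals3+ cells were high in all libraries, at 86.6% to 92.7% thinned and 85.9% to 95% without thinning, against 13.4% to 22.8% of thinned T-like cells.

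**Figure D2:**
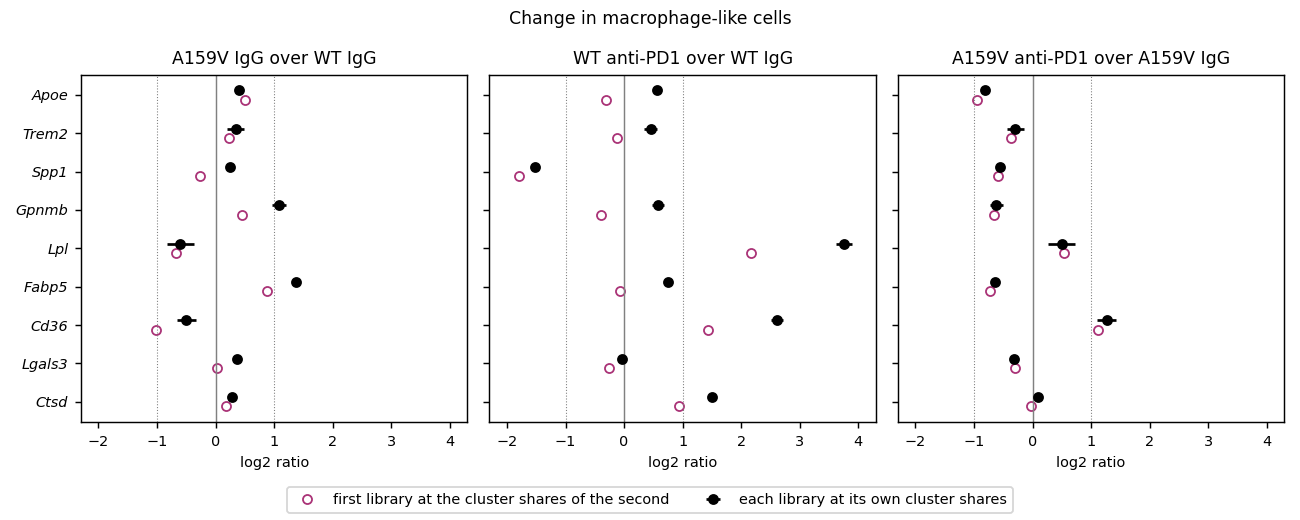
Log2 ratio of each gene in macrophage-like cells for the 3 comparisons, with filled points and bars for the ratio and its 95% counting interval, open points for the ratio at equal cluster shares and dotted lines at 2-fold. By the filled points, Lpl, Cd36 and Ctsd lie above 2-fold and Spp1 below it for anti-PD1 in WT, Gpnmb and Fabp5 lie above it for A159V under IgG, and Cd36 for anti-PD1 in A159V, while the open points of Gpnmb, Fabp5 and Ctsd lie inside the lines.

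Counted together, 2 of the 9 members were past 2-fold higher (Gpnmb and Fabp5) and 0 lower in A159V IgG over WT IgG macrophage-like cells, where 0.58% of all genes at the minimum level were higher and 0.611% lower. The median log2 ratio of the members was 0.35 and that of all genes -0.01. For anti-PD1 in WT, 3 members were higher (Lpl, Cd36 and Ctsd) and 1 lower (Spp1), against 5.44% and 5.94% of all genes, with medians of 0.58 and -0.08. Many genes differed in that comparison, so the background was higher than in the other pairs. For anti-PD1 in A159V, 1 member was higher (Cd36) and 0 lower, against 1.29% and 0.458% of all genes, with medians of -0.31 and -0.03. WT IgG is shared by the first 2 comparisons and A159V IgG by the first and the third. Without the WT anti-PD1 library only the first and the third comparison remain, with their values as given.

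**Figure D3:**
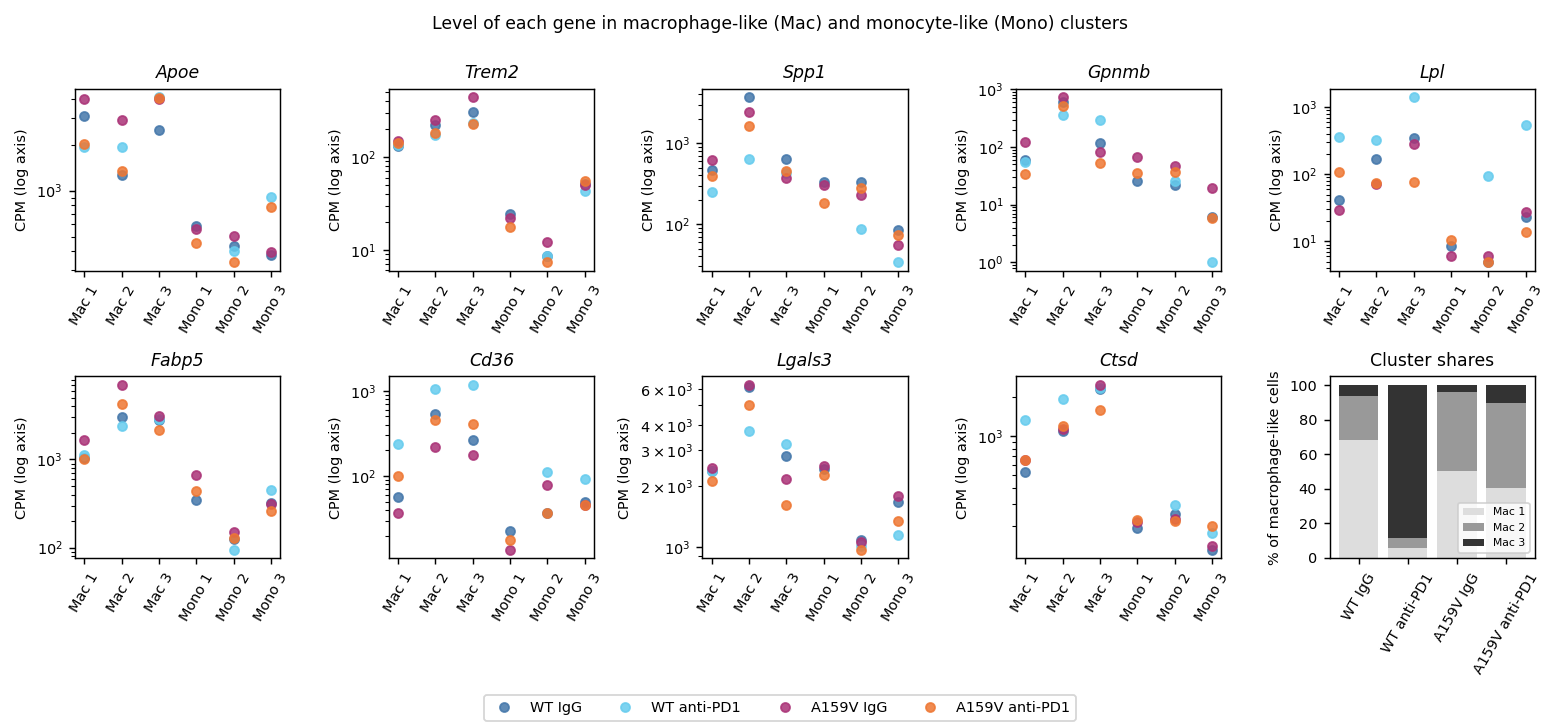
Level of each gene (CPM, log axis) in the macrophage-like and monocyte-like clusters of each library with at least 50 cells, with the share of each Mac cluster among macrophage-like cells in the last panel and with Gpnmb of Mono 3 in WT anti-PD1, which had 0 UMIs, drawn at 1 CPM. Mac 2 held the most Spp1 and Gpnmb of the Mac clusters in every library, and Mac 3 dominated in WT anti-PD1 alone.

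Within the macrophage class the genes split into sets by cluster. In the order WT IgG, WT anti-PD1, then IgG and anti-PD1 for A159V, Mac 2 held 3688, 635, 2432 and 1621 CPM of Spp1 in the 4 libraries, against 470, 248, 622 and 397 CPM in Mac 1 and 631, 430, 369 and 455 CPM in Mac 3. Gpnmb was likewise highest in Mac 2 in each library. Apoe was lowest in Mac 2, at 1264, 1929, 2904 and 1339 CPM, although in WT anti-PD1 its interval overlapped that of Mac 1 (1942 CPM), and Ctsd was highest in Mac 3 in each, so the genes of the set did not mark a single macrophage cluster. Lpl in Mac 3 ran from 78.1 CPM in A159V anti-PD1 to 1406 CPM in WT anti-PD1, while Trem2 in that cluster ran from 227 to 438 CPM.

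Cells with 5 or more of the 9 genes detected after thinning made up 25.3% of macrophage-like cells in WT IgG and 40.9% in A159V IgG, and 46.0% and 30.5% with anti-PD1 in WT and A159V. WT IgG was lowest and WT anti-PD1 highest. The same share was 1.09% to 3.74% in monocyte-like cells and at most 0.227% in T-like cells. The shares rest on 1133 cells in WT IgG, 1320 cells in WT anti-PD1, 969 cells in A159V IgG and 1441 cells in A159V anti-PD1, and cells shallower than 1500 UMIs were left out.

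**Figure D4:**
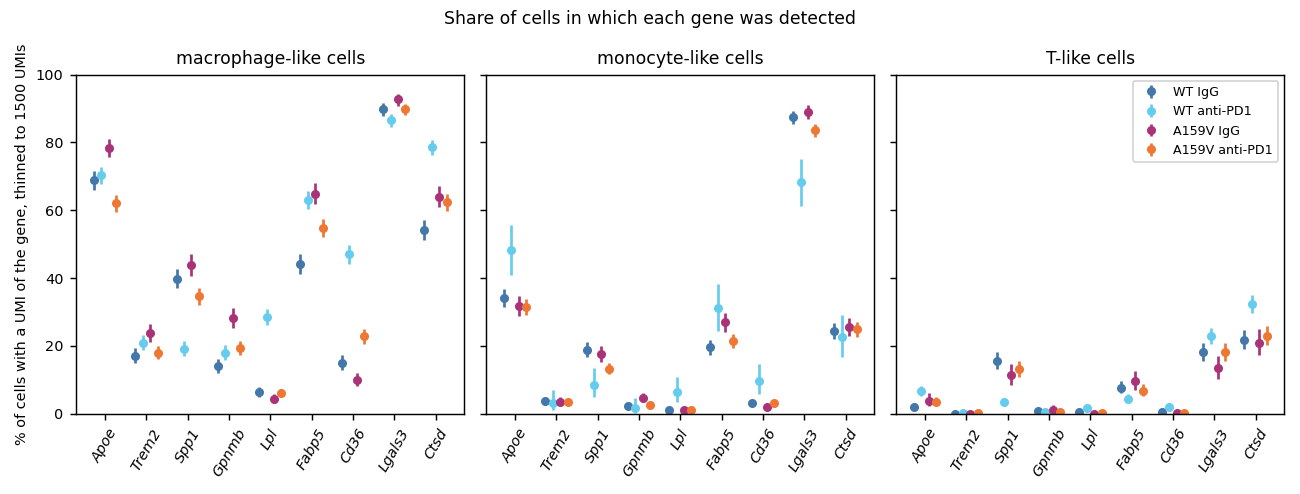
Share of cells with at least 1 UMI of each gene (percent) after thinning to 1500 UMIs per cell, in macrophage-like, monocyte-like and T-like cells of each library, with exact binomial 95% intervals. Lpl and Cd36 were detected in 28.5% and 47.0% of macrophage-like cells in WT anti-PD1, and in T-like cells they stayed under 2%.

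Monocyte-like cells carried lower levels of the same genes. Spp1 was at 289 CPM in WT IgG, 76.9 CPM in WT anti-PD1, 257 CPM in A159V IgG and 164 CPM in A159V anti-PD1, and T-like cells of the same libraries held 138, 31.2, 121 and 152 CPM. The A159V anti-PD1 value was close to the T-like one. Gpnmb was at 21.6, 18.1, 56.9 and 26.8 CPM, so A159V IgG alone was high, with a log2 ratio of 1.36 over WT IgG and -1.06 for anti-PD1 in A159V. Macrophage RNA in the amount of the C1q genes in these cells would carry 10.6 CPM of Gpnmb in WT IgG, 71.9 CPM in WT anti-PD1, 27.4 CPM in A159V IgG and 26.4 CPM in A159V anti-PD1, which is 98.4% of the measured level in the last and more than the measured level in WT anti-PD1. Gpnmb was the 1 of the 8 members at the minimum level that was past 2-fold higher with A159V, against 0.285% of all genes, and 0 were lower, against 0.747%. With anti-PD1 in A159V, 1 of 8 was lower, against 0.265% of all genes, and 0 were higher, against 0.689%.

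Only 253 monocyte-like cells were found in WT anti-PD1, against 1529 to 2115 in the others. They held 4674 CPM of classical monocyte markers against 12118 to 12963 CPM, and 4878 CPM of macrophage markers against 2177 to 2281 CPM, so this class did not hold the same cells in that library. Lpl stood at 10.4 CPM in WT IgG, 438 CPM in WT anti-PD1, 9.38 CPM in A159V IgG and 10.9 CPM in A159V anti-PD1. The high value in WT anti-PD1 (log2 ratio 5.26) rested on 5 cells with 90.7% of its 410 UMIs, and without the 5 top cells the ratio was 2.62. Cd36 was also past 2-fold higher there (1.59) and Spp1 past 2-fold lower (-1.90), which gave 2 of 9 members higher and 1 lower against 13.9% and 6.93% of all genes. Macrophage RNA in the amount of the C1q genes in those cells would carry 987 CPM of Apoe and 285 CPM of Cd36, both more than the 796 and 90.7 CPM measured.

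Tumor-like cells were the main source of Spp1 in every library but WT anti-PD1. They supplied 93.8% of all Spp1 UMIs in WT IgG, and 89.2% and 93.2% with IgG and anti-PD1 in A159V. The 40 tumor-like cells of WT anti-PD1 still supplied 37.2%, against 40.9% from its stromal-like cells. The Spp1 level was 3696 CPM in WT IgG, 1720 CPM in A159V IgG and 1873 CPM in A159V anti-PD1, so WT was high and both A159V libraries were low. Under IgG, A159V over WT gave a log2 ratio of -1.10 (-1.11 to -1.09), which was 1 of the 6 members at the minimum level lower and 0 higher, against 4.02% and 1.47% of all genes. For anti-PD1 in A159V, 0 of 6 members passed 2-fold in either direction, against 0.0913% of all genes higher and 0.0304% lower. The tumor-like class was made of 2 clusters whose shares differed between the genotypes. Cluster 2, led by Sema3a, Tafa1, Ccl2 and Cxcl10, made up 70.4% of tumor-like cells in WT IgG against 22.7% and 34.7% with IgG and anti-PD1 in A159V. Spp1 stood at 4250 CPM in WT IgG and 2161 CPM in A159V IgG in that cluster, and at 2700 and 1615 CPM in cluster 1, which was led by Prl2c3 and Prl2c2. The ratio was -0.98 and -0.74 within these clusters and -0.91 at equal cluster shares, under 2-fold in each.

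Lpl, Fabp5 and Gpnmb had the opposite order in tumor-like cells. Lpl was at 30.2 CPM in WT IgG, 53.4 CPM in A159V IgG and 57.1 CPM in A159V anti-PD1, Fabp5 at 64.8, 129 and 99.3 CPM, and Gpnmb at 41.9, 74.3 and 83.8 CPM. All were lowest in WT IgG, with log2 ratios of A159V IgG over WT IgG of 0.80, 0.98 and 0.81, none past 2-fold. Trem2 and Cd36 stayed under 1 CPM in these cells. Of the 5.63 to 6.49 CPM of Apoe, macrophage RNA in the amount of the C1q genes would carry 2.84 to 2.96 CPM.

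Stromal-like cells carried Spp1 and Lpl in different clusters. Cluster 2, led by Tnc, Col12a1, Bgn and Postn, held 3689 CPM of Spp1 in WT IgG, 979 CPM in WT anti-PD1 and 1633 CPM in A159V IgG, and cluster 1, led by Pi16, Clec3b and Dpt, held 170, 12.6 and 28.2 CPM. For Lpl the order was the reverse, with 429, 491 and 282 CPM in cluster 1 and 64.2, 140 and 64.3 CPM in cluster 2. Over the whole class Spp1 stood at 1729 CPM in WT IgG, 467 CPM in WT anti-PD1, 840 CPM in A159V IgG and 612 CPM in A159V anti-PD1, with WT IgG highest. The log2 ratio was -1.04 for A159V IgG and -1.89 for WT anti-PD1 over WT IgG, 1 of 6 members lower and 0 higher in each, against 0.886% lower and 0.783% higher of all genes in the first and 5.27% and 4.14% in the second. Both calls rested on few cells, since 5 of the 145 stromal-like cells of WT IgG held 68.1% of its Spp1, and without the 5 top cells of each library the ratios were -0.58 and -0.61. For anti-PD1 in A159V, 0 of 7 members passed 2-fold in either direction, against 1.64% of all genes higher and 2.22% lower. Lpl ran from 141 to 326 CPM over the 4 libraries, none past 2-fold in any comparison.

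**Figure D5:**
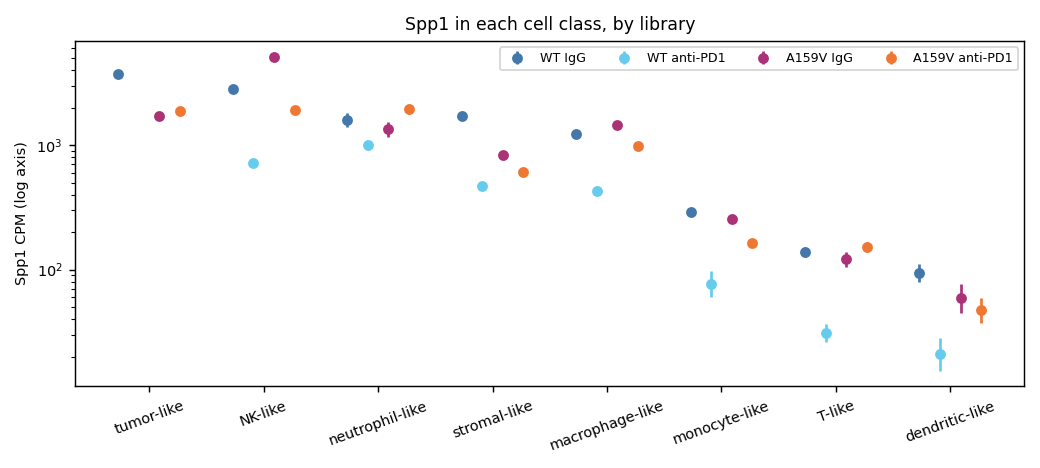
Spp1 level (CPM, log axis) in the 8 classes with at least 50 cells in 3 or more libraries, with bars for the 95% counting interval. Tumor-like cells were at 3696 CPM in WT IgG and at 1720 and 1873 CPM in the A159V libraries, and WT anti-PD1 was the lowest library in each of the other classes shown.

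Within monocyte-like and macrophage-like cells, across 23 profiles (the 3 Mac and 3 Mono clusters in each library, with at least 50 cells), the pairs of members whose levels were most alike were Trem2 with Fabp5 (Pearson r = 0.93), Spp1 with Gpnmb (0.90) and Apoe with Trem2 (0.89), and the pair least alike was Lpl with Spp1 (0.17). The profiles share libraries and differ in depth, so r is a description. Among 5633 genes, those most like Apoe were C1qc, Tanc2 and C1qa, those most like Spp1 were Ndrg1 (0.91), Gpnmb (0.90) and Emp1 (0.89), and those most like Gpnmb were Tnfrsf9, Il7r and Cxcl2 (each 0.91). Ctsd was most like the lysosomal proteases Ctsb (0.97) and Ctsl (0.96), and Cd36 was most like Glul (0.92) and Npc1 (0.91), the latter a lysosomal cholesterol transporter. Trem2 was most like Hdgf and Tex264, Fabp5 and Lgals3 each had Ftl1 among their 3 nearest, and Lpl was most like Cnih1 and Anpep.

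Other genes of these pathways were read in macrophage-like cells from 6 lists of 75 genes. The lists differ in size, and these genes were not recomputed at equal cluster shares. The shares of all genes called are those given above for the members, at most 1.29% for A159V under IgG and for anti-PD1 in A159V. The TREM2 signaling list had 0 of 5 genes past 2-fold in any comparison, with medians of -0.07 for A159V under IgG, -0.51 for anti-PD1 in WT and -0.02 for anti-PD1 in A159V. With anti-PD1 in WT, where 5.44% of all genes were higher and 5.94% lower, the lysosome list had 6 of 22 genes higher and 1 lower and a median of 0.85, against -0.08 for all genes. The highest was Atp6v0d2 (2.57), a subunit of the lysosomal proton pump, and the lowest Acp5 (-1.18). Atp6v0d2 was also the 1 lysosome gene past 2-fold with A159V under IgG (1.19), and with anti-PD1 in A159V it was 1 of 2 lower (-1.25). In the list of apolipoprotein and cholesterol genes, 2 of 11 were higher with anti-PD1 in WT, with the cholesterol exporter Abca1 highest (1.62), 0 were called with A159V, and Apoc2 was the 1 gene lower with anti-PD1 in A159V (-1.06). Among lipid uptake genes, 2 of 9 were higher and 1 lower with anti-PD1 in WT, with the fatty acid carrier Fabp4 highest (2.33) and Pparg, the nuclear receptor of lipid storage, lowest (-1.69), and 0 of 9 were called in either of the other comparisons. Fabp4 stood at 42.2 CPM in WT IgG and 216 CPM in WT anti-PD1. It was also the first leading gene of the endothelial-like cluster, with 181 cells in WT anti-PD1 and at most 2 in any other library. The part of endothelial RNA in its level was not tested. Of 12 other genes of the macrophage state, Igf1 (3.12) led the 2 higher and Axl (-1.58) the 2 lower with anti-PD1 in WT, Mmp12 (1.32) was the 1 higher with A159V, where 1 was lower, and Ch25h (1.26) was the 1 higher with anti-PD1 in A159V. Receptors and partners of osteopontin and galectin-3 had 0 of 8 called in any comparison.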

How the data were processed

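Raw UMI counts per gene and cell, which the authors deposited after Cell Ranger (version 7.2.0 in the file headers, 5.0.1 in the submitters' processing notes, mm10) before their removal of background RNA and doublets, were used for 4 libraries of 1 group each. Introns were counted, so levels can include unspliced RNA. Cells with more than 500 genes were kept, and doublets scored against simulated doublets were removed at 0.8% per 1000 cells. Python 3.11.15, numpy 2.4.6, scipy 1.17.1, pandas 2.3.3, scikit-learn 1.9.0, igraph 0.11.9 and leidenalg 0.10.2 were used. Cells were clustered with the Leiden algorithm (resolution 1, seed 1) from 2000 variable genes, without the 9 members or mitochondrial and ribosomal protein genes, 20 principal components and 20 neighbors, with no integration. The 22 clusters were named from 16 marker lists, and 1 stayed unnamed.

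Counts were summed per class and library of at least 50 cells and scaled to CPM. Log2 ratios used a pseudocount of 1 CPM, with Poisson intervals for levels and delta-method intervals for ratios. With 1 library per group no test was run. All 9 members were named, with the highest and lowest genes of each context list of at least 50 CPM and the 3 genes most like each member. Members and lists were chosen with earlier results of these data known. Clec7a was not analysed here. Gene positions are from GENCODE M21 (GRCm38), in which no member overlaps another gene, and promoters from RefSeq, with 7 of 9 members matched. The code was tested on simulated data.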

Additional observations from a re-analysis of the deposited data

Results flagged for a closer look

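In 6 cases the library ratio for anti-PD1 had opposite signs in WT and A159V tumors with both counting intervals clear of 0. Apoe, Trem2 and Cd36 in stromal-like cells also had opposite signs, but with an interval that includes 0 in at least 1 genotype. Each contrast rests on 1 library per group and the difference was not tested. The gap between the log2 ratios (WT minus A159V) was 1.38 for Apoe, 0.747 for Trem2, 1.20 for Gpnmb and 1.40 for Fabp5 in macrophage-like cells. In each of these the WT ratio was positive and the A159V ratio negative, and none was past 2-fold. Between the WT and A159V anti-PD1 libraries the levels were similar for Fabp5 (2764 and 2719 CPM) and for Gpnmb (284 and 262 CPM). The gaps of these genes thus lie close to their A159V IgG over WT IgG ratios of 1.38 and 1.08, already given above. At equal cluster shares the WT ratios of Apoe, Trem2, Gpnmb and Fabp5 were -0.31, -0.12, -0.40 and -0.08, so that they had the same sign as in A159V. Those 4 values rest mostly on the 98 Mac 1 and 92 Mac 2 cells of WT anti-PD1 and have no interval. Within Mac 2 alone, Apoe was still higher with anti-PD1 in WT and lower in A159V. The gap was 1.16 for Fabp5 in monocyte-like cells, a class of 253 cells with more macrophage markers in WT anti-PD1, and 0.566 for Lpl in stromal-like cells.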

How the results depend on the processing

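For anti-PD1 in macrophage-like cells, the 3 members past 2-fold higher in WT became 2 at equal cluster shares, where Ctsd was at 0.94, and 4 with classes gated on marker UMIs, and the counts of 1 lower in WT and 1 higher in A159V came out the same under every setting they were counted under. Other counts moved by more. Equal cluster shares and leaving out the 5 cells with most UMIs were chosen after seeing the data. For A159V IgG over WT IgG, the macrophage count of 2 higher became 1 with doublets kept or with the mean of per-cell CPM, and 0 higher with 1 lower (Cd36) at equal cluster shares. The monocyte count of 1 higher became 0 with more than 1000 genes per cell, at most 10% mitochondrial UMIs, doublets kept or the gate, and 2 with the T-like level subtracted. The tumor count of 1 lower became 0 with the gate and at equal cluster shares, and 1 was higher by the mean of per-cell CPM. The stromal count of 1 lower became 0 with doublets kept, the gate or without the 5 top cells, and 2 were higher with the gate and 1 with T-like subtraction, per-cell means or without the 5 top cells. For anti-PD1 in WT, the monocyte count of 1 lower became 0 with doublets kept, at resolution 2 or with the members in the clustering. The stromal count of 0 higher became 3 with the gate, and its 1 lower became 2 with the gate, 3 with T-like subtraction and 0 without the 5 top cells. For anti-PD1 in A159V, the monocyte count of 1 lower became 0 at resolution 0.5, by per-cell means and at equal cluster shares, and 2 with T-like subtraction, and 1 was higher with the gate, where the log2 ratio of Gpnmb turned from -1.06 to 0.18. With a pseudocount of 10 CPM that ratio was -0.86, under 2-fold. The stromal count of 0 lower became 1 with no minimum level, T-like subtraction, per-cell means or without the 5 top cells, and 1 was higher with T-like subtraction. All 15 called ratios kept their direction under each setting except that of Gpnmb under the gate, among them the 12 that could be given at equal cluster shares, where 7 stayed past 2-fold. Over 13 settings the macrophage ratio for anti-PD1 in WT ran from 2.17 to 4.17 for Lpl, 1.43 to 2.85 for Cd36, 0.94 to 1.68 for Ctsd and -1.82 to -1.31 for Spp1, and for A159V under IgG from 0.45 to 1.33 for Gpnmb and 0.88 to 1.56 for Fabp5. In macrophage-like cells, the lysosome genes lower with anti-PD1 in A159V went from 2 to 1 with median-of-ratios scaling, and with a minimum of 50 CPM the other genes of the state lower with A159V went from 1 to 0 and those lower with anti-PD1 in WT from 2 to 1. The causes of these moves were not tested. No paired analysis was possible because each group has 1 library and the labels give no shared replicate numbers, and leaving out a replicate was not possible for the same reason. Equal cluster shares could not be given for WT anti-PD1 monocyte-like and tumor-like cells or A159V anti-PD1 stromal-like cells, where a cluster held 15, 3 and 45 cells. The spread between tumors is not measured, and stromal-like cells numbered 145 to 185 in 3 libraries.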

Other observations

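Classes outside the main comparison also carried member genes. NK-like cells held 2849 CPM of Spp1 in WT IgG, 725 CPM in WT anti-PD1, 5065 CPM in A159V IgG and 1923 CPM in A159V anti-PD1, above macrophage-like cells in all 4 libraries and lowest in WT anti-PD1. Tumor RNA in the amount of the tumor markers in NK-like cells would carry 56.0 CPM in WT IgG, 33.3 CPM in A159V IgG and 41.3 CPM in A159V anti-PD1. Neutrophil-like cells held 1599, 1005, 1346 and 1940 CPM of Spp1, and their Cd36 stood at 462 CPM in A159V anti-PD1 against 21.9 to 58.7 CPM in the others, where 136 of the 144 Cd36 UMIs in A159V anti-PD1 came from 1 cell.

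Dendritic-like cells held 802 CPM of Fabp5 in WT IgG, 902 CPM in WT anti-PD1, 1682 CPM in A159V IgG and 738 CPM in A159V anti-PD1, with A159V IgG highest. A159V IgG was also highest for Fabp5 in macrophage-like, monocyte-like, tumor-like, stromal-like and T-like cells, so this order was not particular to myeloid classes. In neutrophil-like cells it was not highest (380 CPM, against 418 CPM in WT IgG). The 181 endothelial-like cells of WT anti-PD1 held 1768 CPM of Cd36 and 585 CPM of Fabp5, and the other libraries had at most 2 such cells.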
